A study of Mus musculus with 6 samples.

Results

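The noncoding RNA lncLSTR, listed as C730036E19Rik, was examined together with 4 protein-coding genes that act with it: Tardbp, Cyp8b1, Nr1h4 and Apoc2. These 5 genes were taken by symbol from the 22609 genes counted in 6 mouse liver libraries, and each of them was among the 12522 genes tested. lncLSTR was chosen because it differed between the genotypes in these same data, so its fold change is given as a description. The other 4 were chosen for their place in its pathway, with earlier results of these data known.

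RNA came from adult liver of C57BL/6 mice, 3 samples from wild type animals (WT) and 3 from animals homozygous for a deletion of Igfbp7 (KO), the gene for a secreted protein that binds insulin-like growth factors. The labels give the deletion as made by a Cre-loxP strategy and name neither the Cre driver nor the cells in which it acted. They state no age, sex, hour of collection or diet. Whether the samples of a genotype are separate animals is also unstated, so p-values measure only the spread between these samples.

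lncLSTR is a long noncoding RNA found mainly in mouse liver. In earlier work it was shown to bind TDP-43, the RNA- and DNA-binding protein encoded by Tardbp, and through it to affect expression of Cyp8b1, the sterol hydroxylase that directs bile acid synthesis towards cholic acid. The make-up of the bile acid pool sets the activity of the bile acid receptor FXR, encoded by Nr1h4, and FXR can raise Apoc2, whose protein activates lipoprotein lipase and so speeds the clearance of triglyceride from plasma.

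TDP-43 prefers RNA with runs of alternating U and G, and the lncLSTR transcript holds such a run. The sequence below is shown because this run is the stretch of the RNA most like the known TDP-43 preference. It is written in DNA letters from the GENCODE M21 transcript of 1102 bases, with 60 bases on each side of the run, and the capitals mark the run. It lies in exon 1 of 5, at chr1:151138324-151138482 on the plus strand of GRCm38.
lncLSTR, bases 291 to 449: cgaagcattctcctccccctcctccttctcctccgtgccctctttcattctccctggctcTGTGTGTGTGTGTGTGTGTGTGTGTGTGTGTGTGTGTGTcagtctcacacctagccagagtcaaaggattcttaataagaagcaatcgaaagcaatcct
The run spans bases 351 to 389 and is 39 bases long. A run of alternating T and G at least that long was present in 78 of 9101 lincRNA transcripts in the same annotation, or 0.857%, and in 0.983% of 58797 protein-coding transcripts. The median longest run was 6 bases over lincRNA transcripts. Among the transcripts of the other members, the longest such runs were 9 bases in Tardbp, 7 in Nr1h4, 6 in Cyp8b1 and 4 in Apoc2. The files count reads per gene and hold no measure of binding.

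The promoters of lncLSTR, Cyp8b1 and Apoc2 are shown because these are the RNA that differed and the 2 genes at which the pathway acts. Each is the 250 bases before the annotated start in RefSeq on GRCm38.p6, written along the strand of the gene. The lncLSTR promoter is chr1:151137784-151138033 on the plus strand, that of Cyp8b1 is chr9:121916306-121916555 on the minus strand, and that of Apoc2 is chr7:19677942-19678191 on the minus strand. Capitals mark matches on either strand to the motifs named after the sequences.
lncLSTR: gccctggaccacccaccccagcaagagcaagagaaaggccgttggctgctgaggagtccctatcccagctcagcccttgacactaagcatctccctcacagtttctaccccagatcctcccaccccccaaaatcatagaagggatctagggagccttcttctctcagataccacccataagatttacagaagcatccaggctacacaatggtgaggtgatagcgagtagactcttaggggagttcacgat
Cyp8b1: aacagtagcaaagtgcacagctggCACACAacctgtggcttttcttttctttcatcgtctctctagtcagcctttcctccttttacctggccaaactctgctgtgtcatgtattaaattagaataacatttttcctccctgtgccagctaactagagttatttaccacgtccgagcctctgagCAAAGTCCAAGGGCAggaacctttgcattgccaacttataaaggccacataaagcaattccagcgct
Apoc2: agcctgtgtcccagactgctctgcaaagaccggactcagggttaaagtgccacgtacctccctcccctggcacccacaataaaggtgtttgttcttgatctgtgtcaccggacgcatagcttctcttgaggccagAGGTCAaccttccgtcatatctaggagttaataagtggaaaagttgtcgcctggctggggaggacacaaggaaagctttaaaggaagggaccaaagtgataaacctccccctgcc
Motifs were searched in all 32851 promoters of the table. Cyp8b1 held CAAAGTCCA, the core of an HNF4A site, at -67 to -59 from the start, a match found in 0.384% of promoters. It held CAAGGNCA, which LRH-1 (encoded by Nr5a2) recognises, at -60 to -53, a match found in 5.53% of promoters. These matches share 2 bases, and HNF4A and LRH-1 are both known regulators of this gene. Cyp8b1 also held TGTGTG, the hexamer of the TDP-43 preference, on the opposite strand at -226 to -221, a match found in 17.9% of promoters. Apoc2 held AGGTCA, the half-site of many nuclear receptors, at -115 to -110, as did 14.0% of promoters. The inverted repeat AGGTCANTGACCT, to which FXR binds with RXR, was in none of the members' promoters and in 2 of all promoters, and the E-box CACGTG (6.02% of promoters) was in none of the members' promoters. The lncLSTR window held no match to any of the motifs. A match is a string of letters and not a known site, and the absence of these letters says nothing about a factor.

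Library depth ran from 16712568 to 22419411 gene counts, and levels are given as CPM, counts relative to library size, scaled by TMM, edgeR's trimmed mean of M-values. Igfbp7 itself stood at 1055 to 1705 counts in WT and 2 to 9 counts in KO libraries. Markers of hepatocytes summed to 88579 to 108818 CPM in WT and 101010 to 121765 CPM in KO libraries, with the groups overlapping, while the summed adipocyte markers stayed at or below 0.372 CPM. The 6 enterocyte markers summed to 148 to 158 CPM in WT and 133 to 158 CPM in KO libraries, with Cdx2 and Alpi at 0 in each library. The 5 markers of pancreatic acinar cells summed to 22.9 to 29.1 CPM in WT and 20.9 to 34.7 CPM in KO libraries, with Cpa1, Prss1 and Pnlip at 0 in each. Only 2 of these enterocyte markers and 1 of these acinar markers were among the tested genes. Markers of Kupffer cells and macrophages summed to less in each KO library, at 353 to 556 CPM against 672 to 757 CPM in WT. Summed cholangiocyte markers (47.6 to 59.3 against 75.9 to 104 CPM) and lymphocyte markers (2.06 to 2.35 against 3.51 to 3.75 CPM) were lower as well. Of the 6 cholangiocyte markers 5 were among the tested genes, and of the 6 lymphocyte markers 4, whose sum was low in every library. Summed endothelial markers (348 to 423 CPM in KO against 378 to 398 CPM in WT) and stellate markers (286 to 432 against 348 to 432 CPM) overlapped. In bulk tissue, fewer cells of a type and less RNA per cell cannot be told apart. WT replicate 1 stood apart in its clock genes. The clock score, evening-phase minus morning-phase clock genes in mean log2 CPM, was -0.33 there against 2.42 and 2.93 in the other WT libraries and 3.17 to 3.78 in KO libraries. Every KO score lay above every WT score, so fits that include the clock score cannot tell clock from genotype.

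lncLSTR was 2.60 times as abundant in KO as in WT livers, the largest difference among the 5 genes. Its counts were 662, 799 and 761 in WT replicates 1 to 3 and 1757, 2099 and 2151 in KO replicates 1 to 3. In CPM these were 35.2, 37.3 and 43.9 in WT and 83.2, 115 and 106 in KO. Every KO library lay above every WT library, and the lowest KO value was 1.89 times the highest WT value. The mean rose from 38.8 ± 4.5 to 101 ± 16 CPM (SD, n = 3 each). On the log2 scale the fold change was 1.38 ± 0.14 (SE). The value that put lncLSTR in view was its edgeR adjusted p of 0.0207, the 3rd lowest p in the table, after Igfbp7 and Nr1i3. Over all tested genes the same threshold was passed by 0.216%, and by 0.128% in the upward direction, which is printed for scale only, since lncLSTR was chosen on this contrast. The adjusted p was 0.0657 without WT replicate 1, 0.0837 without WT replicate 2 and 0.0723 without KO replicate 2, and the log2 fold change ran from 1.28 to 1.50 over the 6 fits with 1 library left out. Adding the clock score to the model gave 1.20 (adjusted p = 0.206), and adding the replicate number as a block gave 1.37 (adjusted p = 0.0539). Over all 15 alternatives the adjusted p ran from 2.71e-15, with DESeq2, to 0.206.

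**Figure D1:**
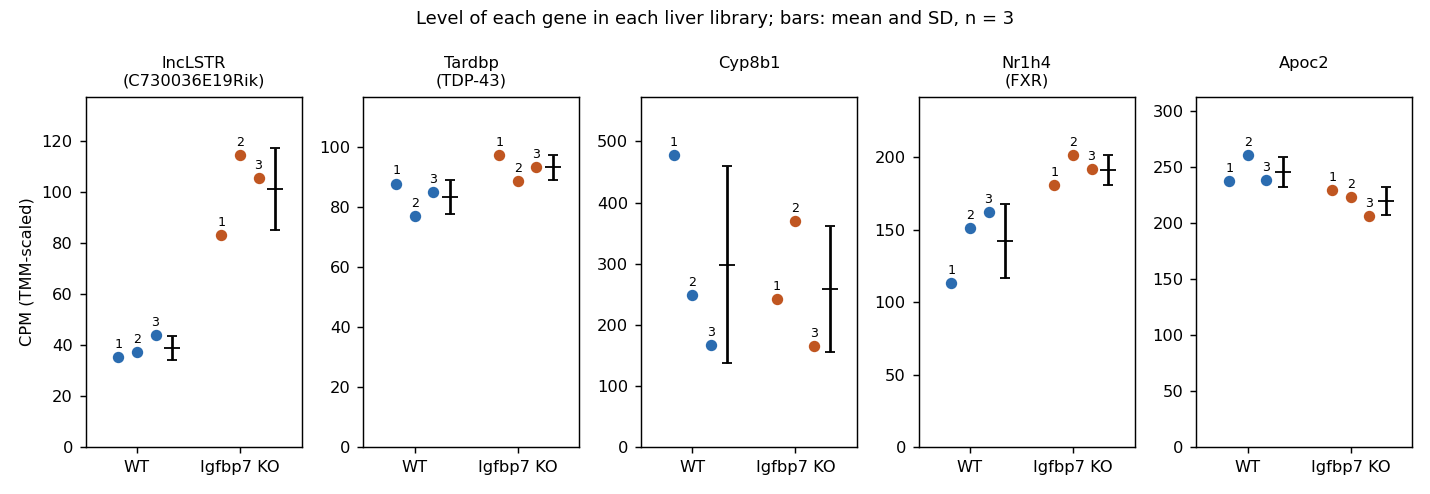
Level of each of the 5 genes in each library, in TMM-scaled CPM on axes that start at 0, with replicate numbers beside the points and the mean and SD (n = 3) as bars. The KO points of lncLSTR sit between 83.2 and 115 CPM, above WT points of 35.2 to 43.9 CPM, while the Cyp8b1 points of the genotypes overlap.

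Tardbp, whose protein TDP-43 also regulates its own mRNA, was slightly higher in KO livers. Its level was 87.9, 76.9 and 85.1 CPM in WT and 97.4, 88.9 and 93.5 CPM in KO replicates 1 to 3. All KO values lay above the WT values, with KO replicate 2 and WT replicate 1 nearly level. The log2 fold change was 0.16 ± 0.09 (SE), with a 95% interval of -0.04 to 0.36 and an edgeR adjusted p of 0.412. Tardbp overlaps Masp2, a complement protease gene of hepatocytes at 207 ± 16 CPM in WT and 220 ± 36 CPM in KO livers (SD, n = 3 each), in the RefSeq annotation of GRCm38.p6. Reads from the stretch they share may go to one of them or be left uncounted.

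Cyp8b1 varied more among livers of one genotype than between the genotypes. It stood at 478, 249 and 167 CPM in WT and 243, 370 and 165 CPM in KO replicates 1 to 3. The groups overlapped: WT replicate 3 and KO replicate 3 were nearly level at the bottom, and WT replicate 1 was the highest of all. The highest WT value was 2.87 times the lowest, and the highest KO value 2.24 times the lowest. In log2 CPM its SD was 0.77 in WT and 0.58 in KO livers, larger than that of 98.6% and 94.7% of tested genes. The log2 fold change was -0.20 ± 0.39 (SE), with a 95% interval of -1.08 to 0.68 and an edgeR adjusted p of 0.858. Its sign turned to 0.32 without WT replicate 1, to 0.04 without KO replicate 3 and to 0.64 with the clock score as a covariate.

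Nr1h4 was somewhat higher in KO livers. The 3 WT values were 113, 151 and 162 CPM and the 3 KO values 181, 202 and 192 CPM. The groups did not overlap, and the WT spread came mostly from the low value of replicate 1, the library with the outlying clock score. The log2 fold change of 0.43 ± 0.13 (SE) had a 95% interval of 0.12 to 0.74 and did not pass over all genes (edgeR adjusted p = 0.190). Without WT replicate 1 this value was 0.29, and it was 0.15 when the clock score entered the model.

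Apoc2 was marginally lower in KO livers. It stood at 237, 261 and 238 CPM in WT and 230, 224 and 206 CPM in KO replicates 1 to 3. No KO value reached the lowest WT value, though KO replicate 1 came close to it. The log2 fold change was -0.16 ± 0.09 (SE), with a 95% interval of -0.37 to 0.05 and an edgeR adjusted p of 0.452. Apoc2 shares its locus with Apoc4 in a read-through gene, Gm44805, that is annotated in GRCm38.p6.

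In 4 of the 5 genes, all but Cyp8b1, the KO and WT values did not overlap. This was the case for 20.7% of all tested genes, and nothing is read from the members' count because lncLSTR was chosen on this contrast. Because both genes of a ratio share a library, count ratios within a library do not depend on scaling. The ratio of lncLSTR to Tardbp counts was 0.400, 0.485 and 0.516 in WT and 0.853, 1.29 and 1.13 in KO replicates 1 to 3. Relative to Nr1h4 counts it was 0.247 to 0.311 in WT and 0.459 to 0.568 in KO, relative to Apoc2 counts 0.143 to 0.184 and 0.361 to 0.512, and relative to Cyp8b1 counts 0.0736 to 0.263 and 0.310 to 0.638. The KO ratios lay above the WT ratios for each of the 4 partners. All 4 ratios share lncLSTR, which was chosen on this contrast, so they restate its difference and are not 4 results.

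Levels between genes were compared per kilobase of the longest GENCODE transcript. In WT livers the order was Apoc2 at 338 CPM per kb, Cyp8b1 at 153, Nr1h4 at 70.6, lncLSTR at 35.2 and Tardbp at 11.1. In KO livers lncLSTR reached 91.7 ± 14.7 CPM per kb (SD, n = 3), beside 95.1 ± 5.1 for Nr1h4 and 133 ± 53 for Cyp8b1, and the values of these 3 genes overlapped. The place of Tardbp rests on the transcript chosen, since its 30 transcripts run from 358 to 7477 bases and their median length would put it at 102 CPM per kb in WT livers.

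The gene most like lncLSTR across the 6 libraries was Nr1i3, which encodes CAR, a nuclear receptor that governs drug-metabolising enzymes in hepatocytes. Likeness was the Pearson correlation of log2 CPM over 6 libraries, ranked over 7381 genes at a mean of at least 10 CPM, and it is a description because the libraries fall into 2 genotypes that share one contrast. Nr1i3 had r = 0.996, and 0.936 over deviations from the genotype means. Its levels were 50.7, 48.4 and 55.8 CPM in WT and 111, 147 and 131 CPM in KO replicates 1 to 3. In both genes WT replicate 3 was the highest WT library and KO replicate 2 the highest and KO replicate 1 the lowest KO library. The lowest WT library differed, replicate 1 for lncLSTR and replicate 2 for Nr1i3. Nr1i3 was picked for its r over these same libraries, so the shared order and the r within genotypes are not further support. The log2 fold change of Nr1i3 was 1.33 ± 0.12 (SE), near the 1.38 of lncLSTR. Next came Plekhh3 (r = 0.995), Abcd4, a lysosomal transporter of cobalamin (r = 0.992), the growth factor gene Fgf1 (r = 0.991) and Ing5, a subunit of histone acetyltransferase complexes (r = 0.989), with smaller log2 fold changes of 0.32 to 0.62, none past the threshold. Fgf1 stood at 103 to 115 CPM in WT and 147 to 179 CPM in KO livers.

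The most opposite patterns were those of Itm2c (r = -0.995), Sptlc2, a subunit of the enzyme that begins sphingolipid synthesis (r = -0.992), the proteasome ATPase gene Psmc2 (r = -0.986), Tmem43 (r = -0.986) and Stom, which encodes stomatin (r = -0.985). Itm2c was at 43.6 to 47.9 CPM in WT and 30.5 to 34.8 CPM in KO livers, and the 5 genes had log2 fold changes of -0.51 to -0.17, none past the threshold. Among the pathway members, Nr1h4 had r = 0.875 with lncLSTR, Tardbp 0.676, Cyp8b1 -0.19 and Apoc2 -0.81. Over deviations from the genotype means these were 0.671 for Nr1h4, -0.42 for Tardbp, -0.28 for Cyp8b1 and -0.39 for Apoc2.

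**Figure D2:**
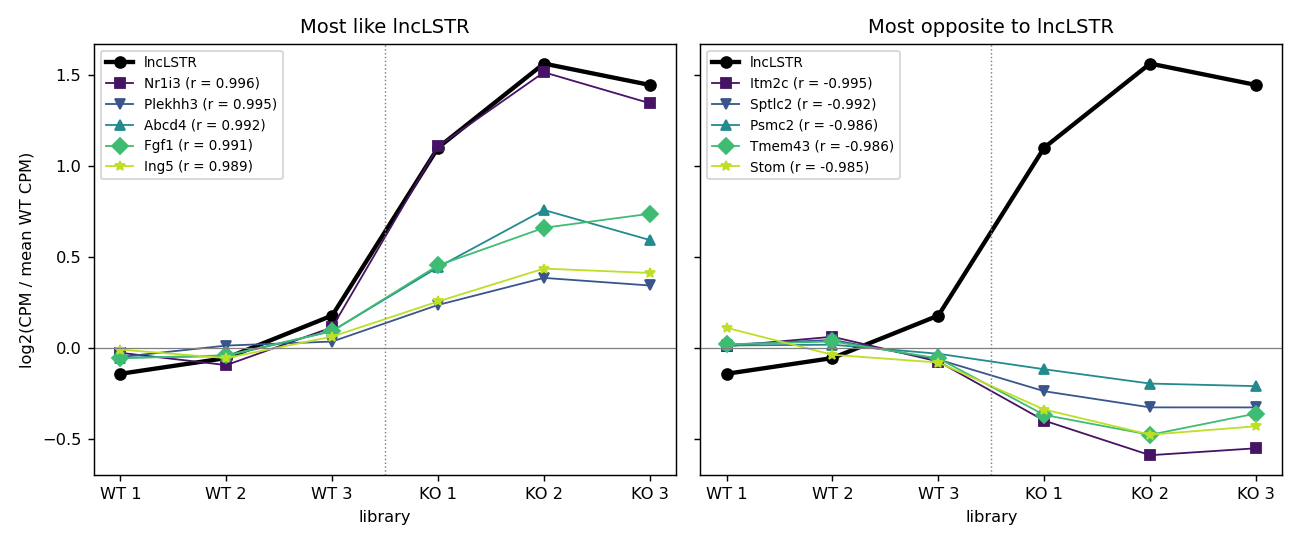
Level of lncLSTR (black) and of the 5 genes with the highest and the 5 with the lowest Pearson correlation with it, as log2 of CPM over the mean WT CPM, in each of the 6 libraries; lines only join the points of 1 gene. Nr1i3 lies close to lncLSTR in each library, while the other genes move over a smaller range.

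The genes nearest to lncLSTR on chromosome 1 had smaller fold changes than lncLSTR. So did 99.7% of all tested genes, since lncLSTR was chosen on this contrast, and the smaller values of its neighbours do not show that its difference is local. Of the 5 nearest genes counted on each side, 8 were tested and 0 passed by edgeR (2 at an unadjusted p under 0.05, and 1, Ivns1abp, by DESeq2). Over all tested genes these shares were 0.216% by edgeR, 15.4% unadjusted and 3.54% by DESeq2. Ivns1abp, the nearest counted gene after lncLSTR and the gene of an actin-binding Kelch protein, was at 155 ± 42 CPM in WT and 244 ± 34 CPM in KO livers (SD, n = 3 each). Its log2 fold change was 0.65 ± 0.19 (SE, edgeR adjusted p = 0.172). Hmcn1, the nearest before it, was at 3.63 ± 0.44 and 3.79 ± 0.46 CPM (SD, n = 3 each). The log2 fold changes of the 8 ran from -0.57 for Fam129a to 0.65. lncLSTR overlaps 1 gene in RefSeq, the noncoding Gm36139, which is not among the rows used here.

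Among the enzymes of bile acid synthesis around Cyp8b1, 0 of 16 tested genes were called in either direction in the reported edgeR fit. At an unadjusted p under 0.05 there were 4 higher and 0 lower, where 8.1% and 7.35% of all tested genes were higher and lower. DESeq2 called 1 of them, Cyp39a1, higher, where it called 3.54% of the 12292 genes it tested. The median log2 fold change was 0.12, against 0.00 over all tested genes, and 11 of the 16 values were above 0. Cyp7a1, the rate-limiting enzyme of the classic pathway, stood at 65.4, 223 and 66.5 CPM in WT and 140, 245 and 719 CPM in KO replicates 1 to 3. Its high value in KO replicate 3 gave a log2 fold change of 1.64 ± 0.65 (SE, edgeR adjusted p = 0.281). In that library Nr0b2, the FXR-induced repressor SHP, was at 6.87 CPM against 20.8 to 38.8 CPM in the other 5. Cyp7b1, the oxysterol hydroxylase of the alternative pathway, was at 260 CPM there against 551 to 999 CPM. Cyp8b1 was at its lowest there, 165 CPM. It was nearly as low in WT replicate 3, at 167 CPM, where Nr0b2 was at 36.9 CPM and Cyp7b1 at its highest, 999 CPM.

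Cyp39a1, an oxysterol hydroxylase, had the lowest p of the list, at 14.5 to 27.3 CPM in WT and 41.3 to 56.7 CPM in KO livers with no overlap (log2 fold change 1.15 ± 0.23, SE, edgeR adjusted p = 0.0801). DESeq2 and the fit without a filter, which called 0.793% of 16764 genes, called it higher. Slc27a2, an acyl-CoA synthetase, was at 1240 to 1543 CPM in WT and 1542 to 1989 CPM in KO livers (adjusted p = 0.240). Cyp27a1, which starts the alternative pathway, was at 550 to 602 CPM in WT and 639 to 839 CPM in KO livers (adjusted p = 0.283). Cyp2c70, which makes muricholic acids in mice, was at 710 to 771 CPM in WT and 494 to 826 CPM in KO livers. The ratio of Cyp8b1 to Cyp2c70 counts, which sets the enzyme of cholic acid beside that of muricholic acids, was 0.667, 0.351 and 0.216 in WT and 0.343, 0.448 and 0.335 in KO replicates 1 to 3. The ranges overlapped, and the mean log2 ratio was -1.43 in both genotypes. The ratio of Cyp8b1 to Cyp7a1 counts ran from 1.12 to 7.30 in WT and from 0.230 to 1.73 in KO livers.

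**Figure D3:**
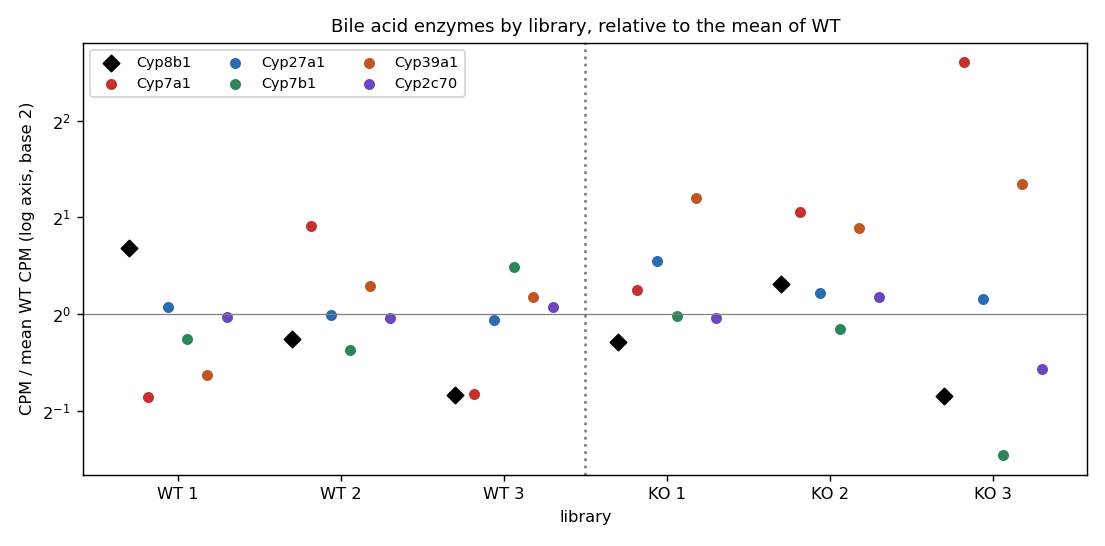
Level of Cyp8b1 (black diamonds) and 5 other bile acid enzyme genes in each library as a ratio to the mean WT CPM, on a log axis of base 2. Cyp8b1 is highest in WT replicate 1 and about equally low in WT replicate 3 and KO replicate 3. Cyp7a1 reaches its highest value, 719 CPM, in KO replicate 3 and is at 66.5 CPM in WT replicate 3.

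The partner of FXR, its known targets and the factors acting on Cyp8b1 gave no call by edgeR among 14 tested genes. At an unadjusted p under 0.05, 3 were higher and 2 lower, against the 8.1% and 7.35% of all tested genes, and Mafg was the 1 gene that DESeq2 called, against 3.54% of all genes it tested. The median log2 fold change was -0.03. Mafg, an FXR-induced repressor of bile acid genes that include Cyp8b1, was at 37.5, 33.5 and 36.3 CPM in WT and 43.6, 58.3 and 49.1 CPM in KO replicates 1 to 3. These did not overlap (log2 fold change 0.49 ± 0.12, SE, edgeR adjusted p = 0.122). Klb, the co-receptor through which intestinal FGF15 lowers bile acid synthesis, was at 31.1 to 43.1 CPM in WT and 46.8 to 51.2 CPM in KO livers (adjusted p = 0.186). Abcb11, the bile salt export pump and an FXR target, was at 978 to 1048 CPM in WT and 759 to 902 CPM in KO livers, the opposite direction to Mafg (log2 fold change -0.34 ± 0.11, SE, edgeR adjusted p = 0.211). The log2 fold change of Nr0b2, a classic FXR target, was -0.14 ± 0.50 (SE), and that of Rxra, the partner of FXR, 0.05 ± 0.11 (SE). Hnf4a and Nr5a2, the genes of the 2 factors whose motifs matched overlapping letters in the Cyp8b1 promoter, were at -0.10 ± 0.17 and 0.10 ± 0.08 (SE).

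Lpl, the lipase that the Apoc2 protein activates, fell in KO livers and was the 1 gene called among 78 tested in the pathway lists, against a background of 0.216% called, or 0.0878% called lower. It was at 44.3, 42.7 and 39.5 CPM in WT and 22.1, 20.9 and 23.7 CPM in KO replicates 1 to 3. The groups were far apart, with a log2 fold change of -0.92 ± 0.10 (SE, edgeR adjusted p = 0.0233), and this difference was already known when the list was drawn up. The call ended without WT replicate 1 (adjusted p = 0.0657), WT replicate 2 (0.0837) or KO replicate 2 (0.0723), where the log2 fold changes were -0.89, -0.92 and -0.88, with the clock score as a covariate (-0.85, adjusted p = 0.219) and with the replicate block (-0.92, adjusted p = 0.0584). Over the 15 alternatives the adjusted p ran from 5.11e-10, with DESeq2, to 0.219. Macrophages express Lpl, and the summed macrophage markers given above were also lower in each KO library. Their part in the fall was not tested.

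No other gene of triglyceride clearance was called in the reported edgeR fit. Of 18 tested genes in this list 0 were called higher and 1 lower, against 0.128% and 0.0878% of all tested genes. At an unadjusted edgeR p under 0.05, 3 were higher and 1 lower, where 8.1% and 7.35% of all tested genes were. In this list 14 values were above 0, and the median log2 fold change was 0.11, against 0.00 over all tested genes. Lipg, which encodes endothelial lipase, was at 21.9 to 26.4 CPM in WT and 42.0, 44.1 and 75.5 CPM in KO replicates 1 to 3. It did not pass in the reported edgeR fit (log2 fold change 1.12 ± 0.22, SE, adjusted p = 0.0801). DESeq2 and the edgeR fit without a filter called it higher, as they called Lpl lower, where they called 3.54% and 0.793% of all genes they tested. Apoa4, a lipoprotein component that responds to fat intake, was at 206 to 324 CPM in WT and 306 to 484 CPM in KO livers (adjusted p = 0.247). The apolipoproteins encoded beside Apoc2 had log2 fold changes of 0.06 ± 0.14 for Apoc4, 0.06 ± 0.13 for Apoc1 and 0.05 ± 0.20 for Apoe (SE). Apoc3, which inhibits lipoprotein lipase, was at 0.14 ± 0.16 (SE). The ratio of Apoc2 to Apoc3 counts, activator to inhibitor, was 0.144, 0.159 and 0.176 in WT and 0.126, 0.117 and 0.150 in KO replicates 1 to 3, with the groups overlapping. The ratio of Apoc2 to Apoc1 counts was 0.0887 to 0.0976 in WT and 0.0744 to 0.0929 in KO livers.

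**Figure D4:**
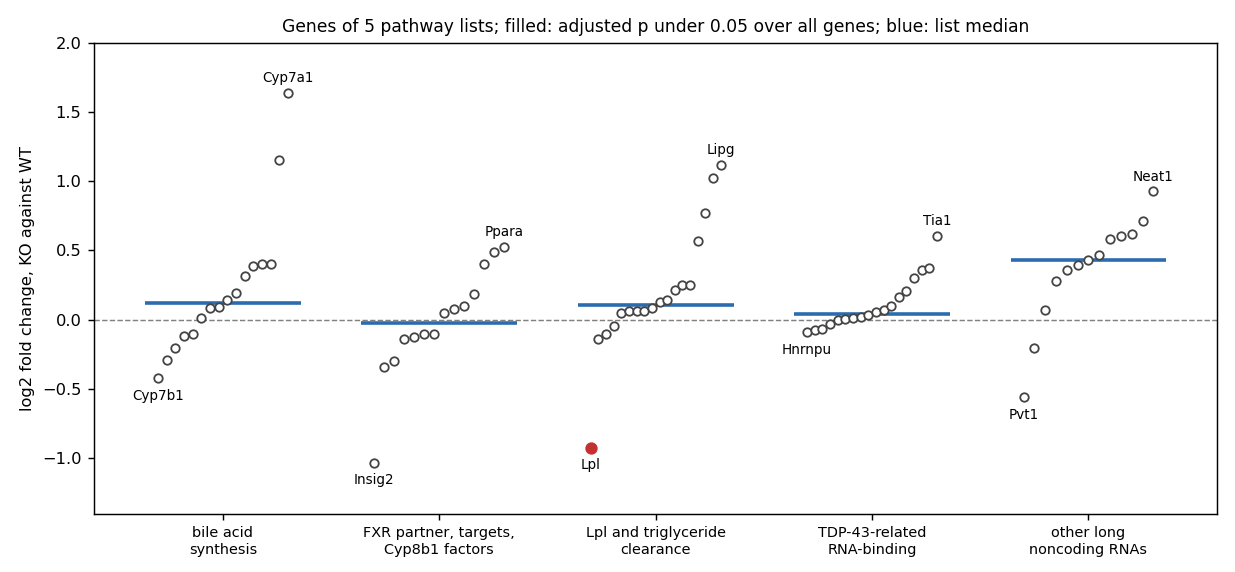
Log2 fold change, KO against WT, of each tested gene in the 5 pathway lists, sorted within a list, with the lowest and highest gene of each list named, filled points for adjusted p under 0.05 over all genes, blue lines for list medians and a dashed line for the median of all tested genes. Lpl is the 1 filled point, at -0.92.

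RNA-binding proteins related to TDP-43, or found in complexes with it, had small fold changes, with a median of 0.05 and a range of -0.09 to 0.61 on the log2 scale. The edgeR fit called 0 of 18 tested genes. Unadjusted, 3 were higher and 0 lower at p under 0.05 (8.1% and 7.35% over all tested genes), and Tia1 was the 1 gene that DESeq2 called (3.54% over all genes it tested). Tia1 and Tial1, stress granule proteins that bind U-rich RNA, were at 7.62 to 9.17 against 10.3 to 14.8 CPM and at 46.4 to 50.8 against 56.7 to 68.9 CPM in WT and KO livers. Neither pair of groups overlapped, and the adjusted p was 0.139 and 0.138. Hnrnpd, which binds AU-rich mRNA, was at 41.2 to 45.8 CPM in WT and 47.2 to 58.2 CPM in KO livers (adjusted p = 0.221).

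Other long noncoding RNAs were listed beside lncLSTR. lncLSTR was chosen for its difference on this contrast, and 99.7% of tested genes had a lower log2 fold change. Smaller values in this list therefore follow from that choice, and nothing is read from them. The edgeR fit called 0 of the 13 tested. Unadjusted, 6 were higher and 0 lower at p under 0.05, where 8.1% and 7.35% of all tested genes were. Snhg1 was the 1 gene of the list that DESeq2 called, where it called 3.54% of all genes it tested. The list median was 0.43 on the log2 scale, against 0.00 over all tested genes. The 3 with the lowest p were Snhg1 at 0.71 ± 0.17, Snhg12 at 0.60 ± 0.17 and Snhg3 at 0.62 ± 0.20 (log2 fold change, SE), host genes of small nucleolar RNAs with KO values above all WT values. Their levels were 3.97 to 5.65, 3.69 to 4.16 and 2.50 to 3.63 CPM in WT livers. Neat1, the scaffold of paraspeckles, had the largest log2 fold change at 0.93 ± 0.51 (SE), which came from 535 CPM in KO replicate 2 against 113 to 173 CPM in the other 5 libraries. Over all lists, KO values lay above all WT values in 17 of the 78 tested genes and below them in 3, where 10.7% and 10.1% of all tested genes did so. The lists were chosen with earlier results of these data known, so nothing is read from the counts of any list.

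**Figure D5:**
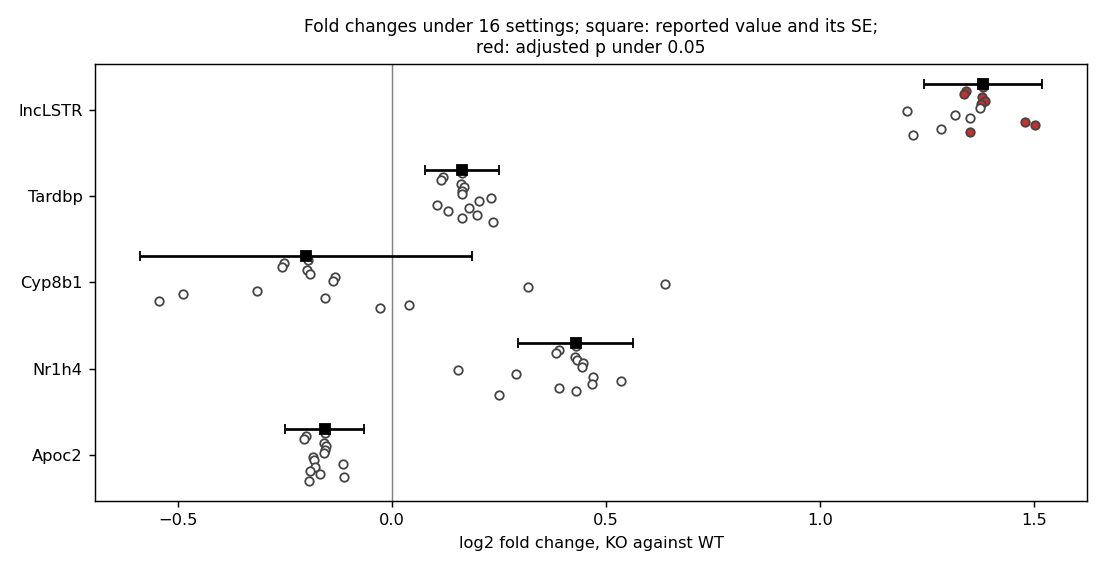
Log2 fold changes of the 5 genes under 16 settings: the reported fit (square, with its SE) and 15 alternatives in scaling, filter, tool, covariate and libraries (circles), red where the adjusted p was under 0.05. The values of lncLSTR stay between 1.20 and 1.50, and those of Cyp8b1 lie on both sides of 0, from -0.55 to 0.64.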

How the data were processed

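RNA-seq read counts of 6 adult mouse liver libraries were used, 3 WT and 3 KO, grouped by the sample titles. The values are whole-number counts per gene symbol as the authors deposited them, 1 file per library, and are not normalized. Tools listed in the submitters' processing notes are CASAVA 1.8.2, TopHat2 2.0.8b and HTSeq, with mm9 and hg19 as builds. The annotation used and the handling of strand are unstated here, so overlapping genes may share reads. The 5 closing rows that name no gene were left out. Reads outside genes were 9.65% to 12.5% of uniquely placed reads, and ambiguous ones 0.594% to 0.662%. Alignments that were not unique, which were not counted to genes, numbered 1.49 per gene count in WT replicate 2, the lowest, to 2.65 in KO replicate 2, the highest.

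The test was edgeR 4.0.16 (R 4.3.3) with filterByExpr at a minimum count of 10, TMM scaling, the quasi-likelihood test with genotype as the only term, and Benjamini-Hochberg adjustment across 12522 genes at a threshold of 0.05. SEs and 95% intervals of log2 fold changes come from the F statistic and its degrees of freedom. Log2 CPM for correlations and the clock score used a prior count of 2. DESeq2 1.42.0, limma 3.58.1 (voom), other scalings, no filter, a replicate block, a clock score and libraries left out were alternatives. Members and lists were chosen with earlier results of these data known. Named genes are the members, genes of each list past the threshold or among its 3 lowest p, pathway genes of stated role, the 5 most and 5 least like lncLSTR, and its neighbours; Cyp7b1, Rxra, Hnf4a, Nr5a2 and Neat1 were chosen after their values were seen. On simulated counts of 12522 genes for this comparison, edgeR called 65 of 72 genes changed 4-fold, 48 of 68 changed 2-fold and 15 of 59 changed 1.5-fold, and 11 unchanged genes. Replicates of a genotype differed by more than counting noise. Sequences come from RefSeq on GRCm38.p6 and GENCODE M21 on GRCm38, not the builds in the notes, and no counts were placed on their coordinates.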

Additional observations from a re-analysis of the deposited data

How the results depend on the processing

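The direction of lncLSTR, Tardbp, Nr1h4 and Apoc2 was the same under each of 15 alternatives, with log2 fold changes of 1.20 to 1.50, 0.10 to 0.24, 0.15 to 0.54 and -0.21 to -0.11. lncLSTR was called in 9 of the 15, and Tardbp, Cyp8b1, Nr1h4 and Apoc2 in 0. lncLSTR fell short of the threshold with the replicate block (log2 fold change 1.37), with the clock score (1.20) and without WT replicate 1 and KO replicate 2 together (1.22), and ran from 1.28 to 1.50 with 1 library left out. Cyp8b1 turned to 0.64 with the clock score and ran from -0.55 to 0.32 with 1 library left out. Genes called over all genes numbered 27 in the reported fit, 133 with no filter, 435 with DESeq2 and 1 each with the replicate block, the clock score and WT replicate 1 and KO replicate 2 left out. With 1 library left out they ran from 3 to 36, at 5, 4, 3 and 13 without WT replicate 1, WT replicate 2, KO replicate 2 and KO replicate 3. Calls in the pathway lists numbered 1 in the reported fit, 3 with no filter, 6 with DESeq2, 0 with the replicate block, the clock score or WT replicate 1 and KO replicate 2 left out, and 0 to 1 with 1 library left out. The cause of these changes was not tested. Fits with libraries left out also hold fewer samples, and the part of this was not tested either. Same-numbered WT and KO libraries deviated from their genotype means with correlations of -0.083, -0.098 and -0.041 across 12522 genes. WT libraries 1, 2 and 3 each correlated better with another KO number than with their own. Such correlations are small, and deviations within 3 libraries depend on each other, so they cannot show whether the samples were paired. Scaling moved the median of all genes by at most 0.05 on the log2 scale. With 3 against 3 libraries, edgeR called 15 of 59 genes changed 1.5-fold, 48 of 68 changed 2-fold and 65 of 72 changed 4-fold in simulated counts.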
